A study of Mus musculus with 79 samples.

Results

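Plin4, which encodes a perilipin that coats lipid droplets, was followed together with 9 genes that glucocorticoid hormones are known to induce in 1 tissue or another: Fkbp5, Sgk1, Tsc22d3, Pdk4, Zbtb16, Cdkn1a, Sult1a1, Mt1 and Mt2. The 10 genes were picked by name from the 25965 genes of the hypothalamus RNA-seq table, with the difference between the genotypes in that table already known. Their expression differences are therefore a description. Whether a fit over all genes called them is given beside the share of all genes called, as a count from which nothing is read. The histone marks, which were measured in separate libraries, were tested. The comparison asks whether the higher Plin4 transcript of the mutant came with a wider change of hormone-responsive genes.

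The RNA-seq libraries came from the hypothalamus of 5 Dnmt3a +/+ and 4 Dnmt3a Δ/D329A female mice aged 14 weeks, with 1 library per animal. In Δ/D329A mice the maternal allele of the DNA methyltransferase gene Dnmt3a carries the deletion Δ, made in the oocyte by Zp3-Cre, and the paternal allele carries the D329A substitution in the PWWP domain, a reader of histone methylation, so that the D329A allele is the intact copy these mice have. Histone marks were measured by native ChIP-seq in the hypothalamus of 3 +/+ and 3 Δ/D329A males of the same age, and each animal gave an H3K4me3, an H3K27me3, an H3K36me3 and an input library. No group with the deletion alone was profiled by RNA-seq or ChIP-seq, so effects of the lost copy and of the substitution cannot be told apart. All animals were on a C57BL/6Babr background. The tissue was taken whole, so fewer cells of a type and less RNA per cell cannot be told apart.

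The RNA-seq libraries held 3874084 to 9976687 reads on genes and the ChIP-seq libraries 12676361 to 30207875 uniquely mapped reads. Dnmt3a stood at 1.71 to 2.11 log2 RPKM in +/+ and at 1.51 to 1.72 in Δ/D329A, a value over the whole gene that does not resolve either allele. The median log2 RPKM of the genes tested ranged over the libraries from 0.81 in +/+ replicate 5 to 1.49 in +/+ replicate 1, so that some values are also given after centring on this median. After this centring the Dnmt3a groups did not overlap, with Δ/D329A lower (-0.30 ± 0.13, limma adjusted p = 0.351).

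Glucocorticoids are released by the adrenal gland under the control of corticotropin-releasing hormone from the hypothalamus. They bind the glucocorticoid receptor, encoded by Nr3c1, which is held by heat shock proteins in the cytoplasm, moves to the nucleus and binds glucocorticoid response elements in DNA. Fkbp5, a co-chaperone that lowers the affinity of the receptor for its hormone, is among the most used reporters of this response in brain.

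The promoters of 6 of the 10 genes are shown because the results turn on them. Plin4 had the largest expression difference of the 10, Pdk4 a difference in H3K27me3, Mt1 input reads that differed between animals, Mt2 is its neighbour, and Sult1a1 and Sgk1 stand for a promoter without and with a response element. The sequences are from RefSeq (GRCm38), in which 9 of the 10 genes matched a promoter and Zbtb16 did not. Sgk1 matched 6 promoters, and the stretch shown is the 1 of these with the full element. Each is written 5′ to 3′ on the strand of the gene and covers up to 250 bases before a start. Capitals mark matches on either strand to the palindromic glucocorticoid response element, to a looser form of it that keeps the outer G and C and the ACA and TGT cores and overlaps the full element, or to the form TGCACNC of the metal response element. Other forms of the metal response element were not searched and are not marked. The stretches are chr17:56109804-56110032 (minus strand) for Plin4, chr6:5496310-5496528 (minus) for Pdk4, chr10:21993640-21993889 (plus) for Sgk1, chr8:94172368-94172617 (plus) for Mt2, chr8:94178839-94179081 (plus) for Mt1 and chr7:126676433-126676668 (minus) for Sult1a1.
Plin4: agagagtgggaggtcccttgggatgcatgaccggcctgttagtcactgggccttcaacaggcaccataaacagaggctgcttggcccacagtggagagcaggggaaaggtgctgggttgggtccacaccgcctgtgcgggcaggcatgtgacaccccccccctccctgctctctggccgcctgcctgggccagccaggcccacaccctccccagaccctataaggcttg
Pdk4: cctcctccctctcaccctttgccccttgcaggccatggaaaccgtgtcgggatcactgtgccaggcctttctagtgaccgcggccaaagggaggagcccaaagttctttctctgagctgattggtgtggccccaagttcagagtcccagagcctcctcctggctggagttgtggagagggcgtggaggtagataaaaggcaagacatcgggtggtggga
Sgk1: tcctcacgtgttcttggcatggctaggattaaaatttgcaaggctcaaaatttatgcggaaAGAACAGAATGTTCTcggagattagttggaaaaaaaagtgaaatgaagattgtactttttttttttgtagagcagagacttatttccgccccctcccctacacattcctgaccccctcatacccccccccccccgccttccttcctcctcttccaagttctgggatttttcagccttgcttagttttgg
Mt2: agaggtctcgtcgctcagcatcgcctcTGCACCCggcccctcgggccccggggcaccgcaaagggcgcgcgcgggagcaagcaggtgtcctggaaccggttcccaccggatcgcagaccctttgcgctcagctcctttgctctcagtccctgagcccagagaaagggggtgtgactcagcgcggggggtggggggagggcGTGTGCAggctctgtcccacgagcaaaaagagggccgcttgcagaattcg
Mt1: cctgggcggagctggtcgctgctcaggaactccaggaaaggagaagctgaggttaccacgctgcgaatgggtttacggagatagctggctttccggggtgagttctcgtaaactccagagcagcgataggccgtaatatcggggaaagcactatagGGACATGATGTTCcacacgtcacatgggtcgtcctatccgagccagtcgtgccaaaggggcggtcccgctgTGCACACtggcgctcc
Sult1a1: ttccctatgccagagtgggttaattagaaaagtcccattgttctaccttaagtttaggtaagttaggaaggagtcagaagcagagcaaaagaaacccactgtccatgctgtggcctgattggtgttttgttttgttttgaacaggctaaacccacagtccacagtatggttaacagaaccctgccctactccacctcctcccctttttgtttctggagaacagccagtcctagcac

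The full response element was found in the printed stretch of Sgk1, where it read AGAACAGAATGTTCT at positions -189 to -175 counted from the end of the stretch, and in 3 of 32817 RefSeq promoter stretches (0.00914%). The looser form lay in the stretch of Mt1, where it read GGACATGATGTTC at positions -87 to -75, and in 0.387% of all stretches. The searched form of the metal response element occurred at both metallothionein genes and in 10.4% of all stretches. In windows from 1500 bp before to 500 bp after the start given in the expression table, Mt2 also held the looser form, at -1082 bp, and Fkbp5 at -668 bp. The looser form was found in 3.05% of all such windows, the full element in 0.0193% and the searched form of the metal response element in 60.2%. Of the 10 genes none held the full element in these windows. None of the 3 motifs was found in the Plin4 window. A match describes the sequence and does not show that the receptor binds there.

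Plin4 (chr17:56100591-56109802, minus strand) stood at log2 RPKM values of -0.87, -1.10, -1.10, -1.23 and -1.56 in the +/+ libraries and of 0.64, 0.47, 0.54 and 0.67 in the Δ/D329A libraries, where RPKM is reads per kilobase of exon, scaled to the library. Every Δ/D329A library lay above every +/+ library, and the reads behind these values numbered 33 to 58 in +/+ and 84 to 131 in Δ/D329A. The difference of the means, Δ/D329A minus +/+, was 1.75 ± 0.18 (SE) on the log2 RPKM scale, a 3.36-fold higher level, and exceeded those of 99.6% of the 17839 genes in the fit. Of the 10 genes, Plin4 had the lowest level in +/+ (-1.17 ± 0.25, SD, n = 5, against 0.58 ± 0.09, n = 4, in Δ/D329A).

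The 3 genes best known as targets of the receptor in brain differed less. Fkbp5 (chr17:28399095-28517524) stood at 0.33, 0.40, -0.11, 0.31 and 0.39 in +/+ and at 0.82, 0.31, 0.62 and 0.41 in Δ/D329A. The groups overlapped, with a difference of 0.28 ± 0.18. Sgk1 (chr10:21882184-21999903), a kinase that regulates ion channels and transporters, stood at 3.15, 3.44, 3.72, 2.90 and 2.49 in +/+ and at 3.96, 3.42, 3.86 and 3.67 in Δ/D329A. Its difference was 0.59 ± 0.24, and 2 of the 5 +/+ values lay within the Δ/D329A range. Tsc22d3 (chrX:140539528-140600659), a leucine zipper protein that dampens inflammatory transcription, stood at 3.80, 3.69, 3.99, 3.06 and 2.79 in +/+ and at 3.82, 3.37, 3.78 and 3.46 in Δ/D329A. Its highest and its lowest value were both in +/+, and the difference was 0.14 ± 0.25.

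Among the regulators of metabolism and growth, Pdk4 (chr6:5483351-5496309), a kinase that inhibits pyruvate dehydrogenase, stood at 0.36, 0.71, 0.62, 0.54 and -0.27 in +/+ and at 0.36, 0.38, 0.76 and 0.17 in Δ/D329A. The groups overlapped, and the difference was 0.03 ± 0.23. Zbtb16 (chr9:48654311-48835945), a zinc finger repressor of transcription, stood at 1.09, 0.89, 0.99, 1.01 and 0.94 in +/+ and at 1.44, 1.23, 1.69 and 1.08 in Δ/D329A. The lowest Δ/D329A value lay just under the highest +/+ value, and the difference was 0.38 ± 0.15. Cdkn1a (chr17:29090979-29100722), the cell cycle inhibitor p21, stood at 0.35, 0.13, 0.11, -1.11 and -1.32 in +/+ and at 0.62, 1.10, 0.87 and 0.23 in Δ/D329A. The groups overlapped, +/+ replicates 4 and 5 lay more than 1 log2 unit under the other 3, and the difference was 1.07 ± 0.37, a 2.10-fold higher level on 15 to 54 reads a library. Sult1a1 (chr7:126672865-126676432), a sulfotransferase of phenolic compounds, stood at 0.82, -0.10, 0.80, 0.91 and 0.24 in +/+ and at 1.32, 1.37, 1.58 and 1.18 in Δ/D329A. The groups did not overlap, and the difference was 0.83 ± 0.23, a 1.78-fold higher level on 22 to 60 reads a library.

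The metallothioneins, which bind zinc and copper, were the most abundant of the 10 per length. Mt1 (chr8:94179089-94180325) stood at 6.87, 6.03, 6.91, 5.85 and 6.06 in +/+ and at 7.29, 6.65, 7.13 and 6.68 in Δ/D329A, a difference of 0.59 ± 0.28 with overlap. Mt2 (chr8:94172618-94173567) stood at 5.28, 4.62, 5.49, 4.68 and 4.77 in +/+ and at 5.56, 5.27, 5.85 and 5.16 in Δ/D329A, a difference of 0.49 ± 0.23 with overlap. In both genes +/+ replicates 1 and 3 were high. Of the exon bases of Mt2, 73.5% are shared with the antisense gene Gm45774, 273 of the 2718 exon bases of Cdkn1a and 61 of the 1450 of Sult1a1 are shared with a gene on the other strand, and while the study describes an opposite-strand specific kit, whether strand was used in counting is not given in the sources used here. By mean level in +/+ the order was Mt1, Mt2, Tsc22d3, Sgk1, Zbtb16, Sult1a1, Pdk4, Fkbp5, Cdkn1a and Plin4. The +/+ ranges of neighbours in this order overlapped except between Mt1 and Mt2, Mt2 and Tsc22d3, and Sgk1 and Zbtb16.

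**Figure D1:**
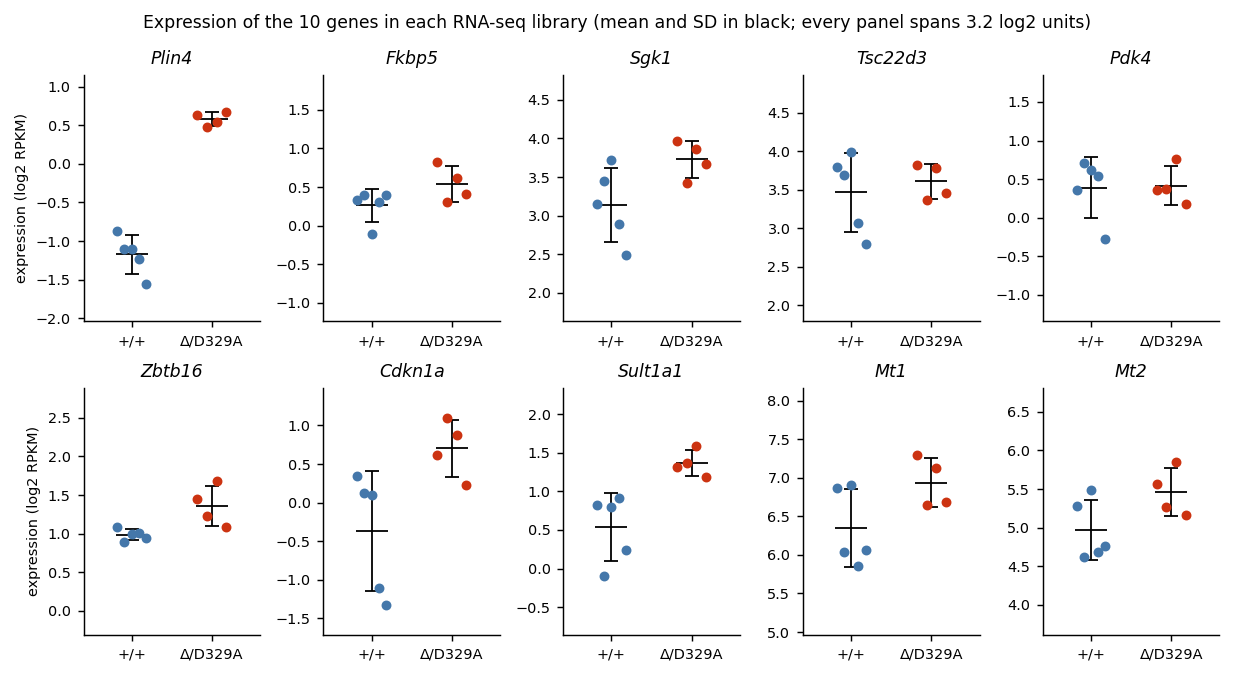
Expression in log2 RPKM (y axis) of the 10 genes in the 5 +/+ libraries (blue) and the 4 Δ/D329A libraries (red), with the mean and SD in black and 3.2 log2 units in every panel. The groups do not overlap for Plin4 and Sult1a1.

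All 10 differences lay above 0, as did 59.6% of those of all genes tested, and the median of the 10 was 0.54 against 0.06 for all genes. Without Plin4 the median was 0.49. The groups did not overlap, with Δ/D329A higher, in 2 of the 10, against 1.78% of all genes. Plin4 was the 1 of the 10 that limma, edgeR and DESeq2 called at an adjusted p under 0.01, against 0.107% of genes called by limma (0.0841% higher), 0.554% by edgeR and 1.56% by DESeq2. Nothing is read from these counts, since the contrast chose the genes. No member was called by limma once Δ/D329A replicate 1, Δ/D329A replicate 4, or +/+ replicates 4 and 5 together were left out. After the libraries were centred on their medians, Cdkn1a no longer overlapped and Sult1a1 did, so that the count stayed at 2, against 2.5% of all genes. The lowest +/+ value of 6 of the 10 genes was in replicate 4 or 5, the libraries with the smallest shares of reads on genes (36.3% and 33.3%, against 46.0% to 54.3% in the other +/+ and 36.8% to 45.1% in the Δ/D329A libraries). Mitochondrial transcripts made up 1.75% to 3.79% of gene reads in +/+ and 0.949% to 1.18% in Δ/D329A. The part of these shares in the differences was not tested.

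The wider hormone response was read from a list of 25 other glucocorticoid-induced genes. Of the 22 tested, limma called 0 higher and 0 lower, edgeR called 0 and DESeq2 called 0. At an unadjusted p under 0.05, 4 of the 22 were higher and 0 lower, against 4.61% of all genes higher and 7.62% in either direction. The median difference was 0.21, against 0.06 for all genes, and 19 of the 22 lay above 0, against 59.6% of all genes. Per1, a clock gene with a rapid hormone response, differed by 0.23 ± 0.16 (SE), and Klf9, a zinc finger factor induced by glucocorticoids in neurons, by 0.03 ± 0.20. The 2 genes of the list with the smallest p were Lcn2, an iron carrier of inflammation, with 0 to 4 reads in +/+ and 3 to 6 in Δ/D329A (limma adjusted p = 0.124), and Hif3a, a hypoxia-inducible factor. Hif3a had 26 to 38 reads in +/+ and 38 to 53 in Δ/D329A and differed by 0.88 ± 0.20 (limma adjusted p = 0.200). Without +/+ replicate 4, Lcn2 was called and the count of the list was 1. Every Δ/D329A library lay above every +/+ library for 3 of the 22 genes, against 1.78% of all genes. Lcn2 was 1 of these 3, and its groups overlapped after median centring. Hif3a was another, and it stayed higher without overlap after centring, as did 2.5% of all genes.

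The receptors and the hypothalamic peptides of the stress axis were compared in the same fit. Nr3c1 differed by -0.12 ± 0.14 and Nr3c2, the mineralocorticoid receptor, by 0.01 ± 0.15. Of 11 receptor, chaperone and hormone-converting genes tested, limma, edgeR and DESeq2 called 0, and 1 was lower at an unadjusted p under 0.05: Hsd11b1, which regenerates active hormone, at -0.83 ± 0.30 (limma adjusted p = 0.355). Crh, the releasing hormone, stood between -0.57 and 1.01 in +/+ and between 0.68 and 1.48 in Δ/D329A, a difference of 0.71 ± 0.34 (limma adjusted p = 0.355). Of the 12 stress axis genes, limma called 0, with 1 higher, Ucn3, and 2 lower at an unadjusted p under 0.05. Ucn3 had 4 to 25 reads in +/+ and 14 to 26 in Δ/D329A, with overlap (1.30 ± 0.47, limma adjusted p = 0.355). The median difference of the 12 was -0.08. EdgeR called 1 of the 12 and DESeq2 called 1. That gene was Adcyap1, the neuropeptide PACAP, which was at 4.52, 4.15, 4.25, 3.93 and 3.62 in +/+ and at 3.45, 2.93, 3.48 and 3.62 in Δ/D329A. The groups did not overlap, as in 1.23% of all genes in this direction. Its difference was -0.73 ± 0.20, with an adjusted p of 0.342 by limma, 0.00567 by limma after median centring, which called 0.191% of genes, 0.00165 by edgeR and 2.59e-09 by DESeq2.

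Other lists that hold relatives or regulators of the 10 genes gave few calls. Among 15 perilipins and lipid droplet proteins limma and edgeR called 0 and DESeq2 called 1, Plin3, at 0.78 ± 0.27 (DESeq2 adjusted p = 0.000727), with 1 higher and 1 lower at an unadjusted p under 0.05. Among 13 p53 targets, which share that regulator with Cdkn1a, limma, edgeR and DESeq2 called 0, 0 passed an unadjusted p of 0.05 and the median difference was -0.06. Among 7 genes of the metallothionein system all 3 tools called 0 and 0 passed an unadjusted p of 0.05. All 9 immediate early genes had a difference above 0, against 59.6% of all genes. The median of the 9 was 0.26, against 0.06 for all genes. Limma and edgeR called 0 of the 9, and 2 were higher at an unadjusted p under 0.05. DESeq2 called 1, Egr1, at 0.69 ± 0.16 (DESeq2 adjusted p = 0.00724). Among the 6 pyruvate dehydrogenase kinases and phosphatases other than Pdk4, limma and edgeR called 0 and 1 was higher at an unadjusted p under 0.05, Pdp1, at 0.58 ± 0.21 (DESeq2 adjusted p = 0.00527). Of 7 other sulfotransferases 2 were expressed enough to be tested, and limma, edgeR and DESeq2 called 0, with 0 at an unadjusted p under 0.05.

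**Figure D2:**
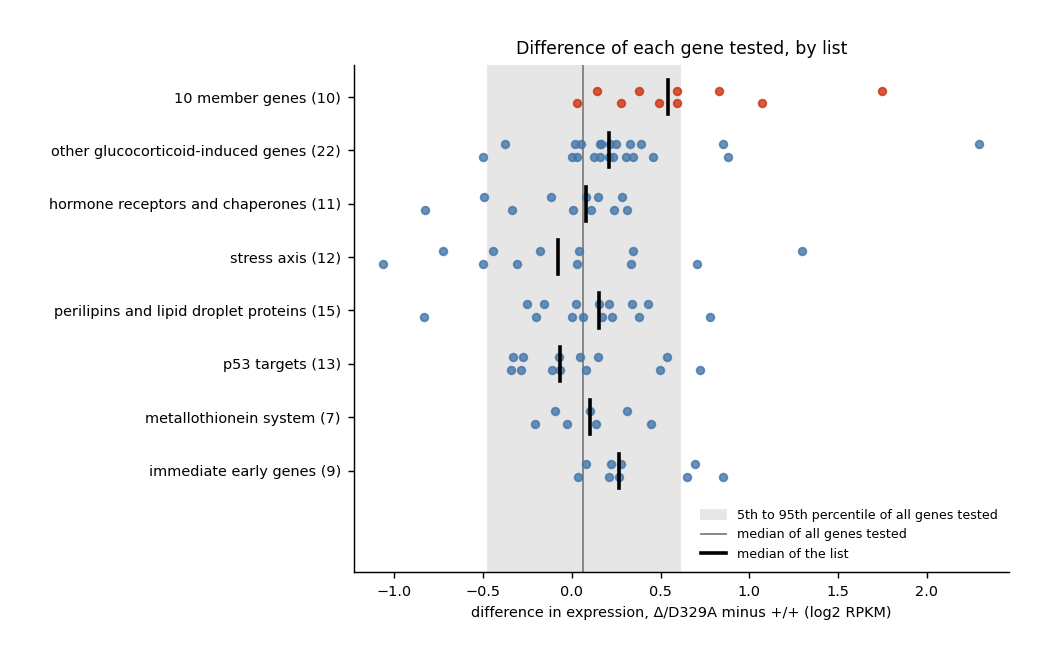
Difference in log2 RPKM, Δ/D329A minus +/+ (x axis), of each gene tested in the 10 member genes (red) and in 7 other lists (blue), with the median of each list as a black bar and the 5th to 95th percentile of all genes in grey. The median of the other glucocorticoid-induced genes is 0.21 and that of the members, which were chosen on this contrast, is 0.54.

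Of 6 adipocyte markers, Adipoq, Cfd and Fabp4 had no read in any library, and the 1 above the filter on low values was Fabp4, through the floor of 0.9 reads. Oligodendrocyte markers were lower in 7 of 8 genes, while 59.6% of all genes tested lay above 0. The summed level of these markers was 302 to 469 RPKM in +/+ and 208 to 389 in Δ/D329A. Limma and edgeR called 0 of them and DESeq2 called 1, Mobp (-0.76 ± 0.25, DESeq2 adjusted p = 0.000521). Microglia markers summed to 33.3 to 66.02 RPKM in +/+ and 39.6 to 62.1 in Δ/D329A, astrocyte markers to 243 to 423 and 281 to 398, and erythroid markers to 13.4 to 42.3 and 34.3 to 45.9. Choroid plexus markers summed to 4.01 to 5.80 RPKM in +/+ and 4.38 to 7.57 in Δ/D329A. Of the 5 tested, 2 lay above 0 and 3 did not, with a median difference of -0.31. Ttr had 7 to 25 reads in +/+ and 23 to 66 in Δ/D329A (DESeq2 adjusted p = 0.0014). Kl was lower, at -0.43 ± 0.19 (limma adjusted p = 0.355). All 10 hypothalamus markers were detected, with summed levels of 356 to 729 RPKM in +/+ and 419 to 624 in Δ/D329A. Limma called 0 of them, with 0 higher and 1 lower at an unadjusted p under 0.05, and edgeR and DESeq2 called 1, Sim1, a transcription factor of hypothalamic neurons. Sim1 stood at 0.96, 1.18, 1.19, 1.09 and 0.81 in +/+ and at 0.20, -0.12, 0.32 and 0.49 in Δ/D329A, lower without overlap (-0.82 ± 0.17, adjusted p = 0.155 by limma, 0.00859 by edgeR and 0.000103 by DESeq2). The part of these cell types in the differences of the 10 genes was not tested.

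Of the genes within 50 kb of Plin4, Chaf1a, Ubxn6, Hdgfrp2, Plin5 and Sema6b were tested and limma called 0 of them, with differences from 0.08 (Sema6b) to 0.32 (Chaf1a). The genes with the pattern most like that of Plin4 over the 9 libraries were Lect1 (Pearson's r = 0.986), Mpeg1, Lhx4, Hoxa6 and Matn1. All were without overlap between the genotypes. This ranking favours such genes, since it keeps the genotype difference for which Plin4 was chosen, and nothing is read from it. Lhx4 had 0 to 1 reads in +/+ and 21 to 29 in Δ/D329A, and Hoxa6 0 and 3 to 5. Over the same 9 libraries r between Plin4 and the other members ran from 0.14 for Pdk4 to 0.81 for Sult1a1, with a median of 0.68 against 0.22 for all genes, and this likeness includes the difference that chose the members. After centring on library medians and subtracting the mean of each genotype, r with Plin4 ranged over the other 9 members from -0.60 for Mt1 to 0.47 for Pdk4. The median was 0.003, against 0.15 for all genes, over 9 libraries that share their scaling. For Fkbp5 treated in the same way, r was highest with Zbtb16 (0.67) and lowest with Tsc22d3 (-0.60), and the median over the other 9 members was -0.23, against 0.05 for all genes. Plin4 had 33 to 131 reads a library and Fkbp5 79 to 165. Counting noise at this depth limits r once the genotype means are removed. These r values therefore cannot show whether the genes vary together.

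H3K4me3, a mark of active promoters, was compared as the mean RPM (reads in tiles of 2000 bp, each library scaled by its total of mapped reads). The tiles averaged were those centred from 1500 bp before to 500 bp after each start. At Plin4 this left out the tile centred 802 bp into the gene, where H3K4me3 was highest. Promoter H3K4me3 of Plin4 was 1.83, 2.99 and 1.94 in +/+ and 2.16, 2.52 and 2.16 in Δ/D329A, and the groups overlapped. The log2 difference was 0.05 ± 0.26 (SE), with a 95% interval from -0.61 to 0.70 (limma adjusted p = 1). Its sign changed when +/+ replicate 1, +/+ replicate 3 or Δ/D329A replicate 2 was left out (-0.079, -0.041 and -0.024), and it was 0.25 after median centring. Limma called 0 of the 10 promoters and 0 of 25952 in all (0%), with 2 of the 10 and 900 in all (3.47%) at an unadjusted p under 0.05, and edgeR on the reads of the tile at the start called 0.279% of promoters and 0 of the 9 members tested. The 2 were Mt1 and Pdk4. Mt1 had 17.5, 16.8 and 19.4 RPM in +/+ and 11.8, 16.7 and 11.7 in Δ/D329A, lower without overlap, as were 4.22% of all promoters (-0.43 ± 0.16, unadjusted p = 0.0403, limma adjusted p = 1). Pdk4 had 17.3, 15.5 and 17.1 RPM in +/+ and 11.9, 15.7 and 11.1 in Δ/D329A (-0.38 ± 0.15, unadjusted p = 0.0471, limma adjusted p = 1). Its groups overlapped through Δ/D329A replicate 2. After median centring the differences of Mt1 and Pdk4 were -0.23 and -0.17.

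The other promoters overlapped too. Zbtb16 had the most H3K4me3 at the start of the expression table, with 32.0, 31.1 and 32.6 RPM in +/+ and 22.0, 37.6 and 30.9 in Δ/D329A. Mt2 had 19.0, 18.7 and 20.1 RPM in +/+ and 11.8, 20.7 and 13.5 in Δ/D329A, a difference of -0.37 ± 0.22. Sult1a1 was low in both genotypes, with 3.38, 3.16 and 2.53 RPM in +/+ and 4.11, 3.08 and 2.61 in Δ/D329A, a difference of 0.09 ± 0.23.

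The median difference of all promoters was -0.07 as deposited and 0.14 after median centring, and the median tile of Δ/D329A replicate 1 held 0.314 RPM, against 0.0789 to 0.200 in the other H3K4me3 libraries. Of the 10 members 7 lay below 0 as deposited, 6 without that library and 5 after centring. Of all promoters 69.9%, 41.0% and 19.1% lay below 0 in these settings. Sgk1, Tsc22d3, Cdkn1a and Fkbp5 have another annotated start with more H3K4me3 than the one of the expression table. At its strongest start (chr10, position 21994666), from which the response element lies at -965 bp, Sgk1 had 37.1, 34.6 and 37.2 RPM in +/+ and 24.6, 40.1 and 28.4 in Δ/D329A, a difference of -0.26 ± 0.20 with overlap. Tsc22d3 had 18.3, 19.4 and 21.1 RPM in +/+ and 13.6, 20.7 and 18.3 in Δ/D329A, a difference of -0.18 ± 0.17. Cdkn1a had 11.7, 10.8 and 10.7 RPM in +/+ and 7.49, 12.9 and 8.68 in Δ/D329A, a difference of -0.22 ± 0.21. Fkbp5 had 14.6, 14.96 and 14.0 RPM in +/+ and 11.9, 15.5 and 16.0 in Δ/D329A, a difference of -0.02 ± 0.13. In each of these genes the groups overlapped, and Δ/D329A replicate 1 was the lowest of the 6 libraries.

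**Figure D3:**
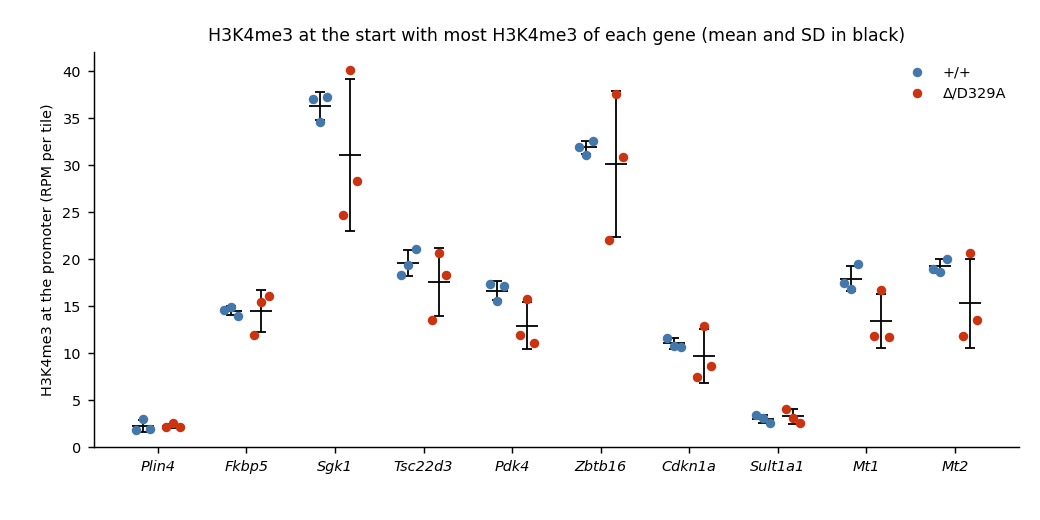
H3K4me3 in RPM per tile (y axis) at the start with most H3K4me3 of each of the 10 genes, in 3 +/+ (blue) and 3 Δ/D329A (red) libraries, with the mean and SD in black. Plin4 lies near 2 RPM in both genotypes, and Mt1 is the gene whose groups do not overlap.

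H3K27me3, the mark laid by Polycomb repressive complex 2, was close to 0 at the Plin4 promoter, with 0.0315, 0.0300 and 0.0744 RPM in +/+ and 0.0672, 0.0382 and 0.0762 in Δ/D329A. The nearest domain was highest, on the mean of the 6 libraries, 12198 bp upstream, near the start of Lrg1, at 3.32 ± 0.35 RPM (SD, n = 3) in +/+ and 2.88 ± 0.82 in Δ/D329A. Between this domain and Plin4, the promoter of Plin5, a perilipin of oxidative tissues that starts 7794 bp upstream of Plin4, had 0.944, 1.26 and 1.19 RPM in +/+ and 2.25, 1.47 and 2.06 in Δ/D329A. The groups did not overlap, with Δ/D329A higher, as in 6.3% of all promoters (0.71 ± 0.19, unadjusted p = 0.0102, limma adjusted p = 0.434). Plin5 was named after its values were seen. H3K4me3 was highest 802 bp into Plin4, at 4.78 ± 1.77 RPM in +/+ and 4.08 ± 0.41 in Δ/D329A.

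**Figure D4:**
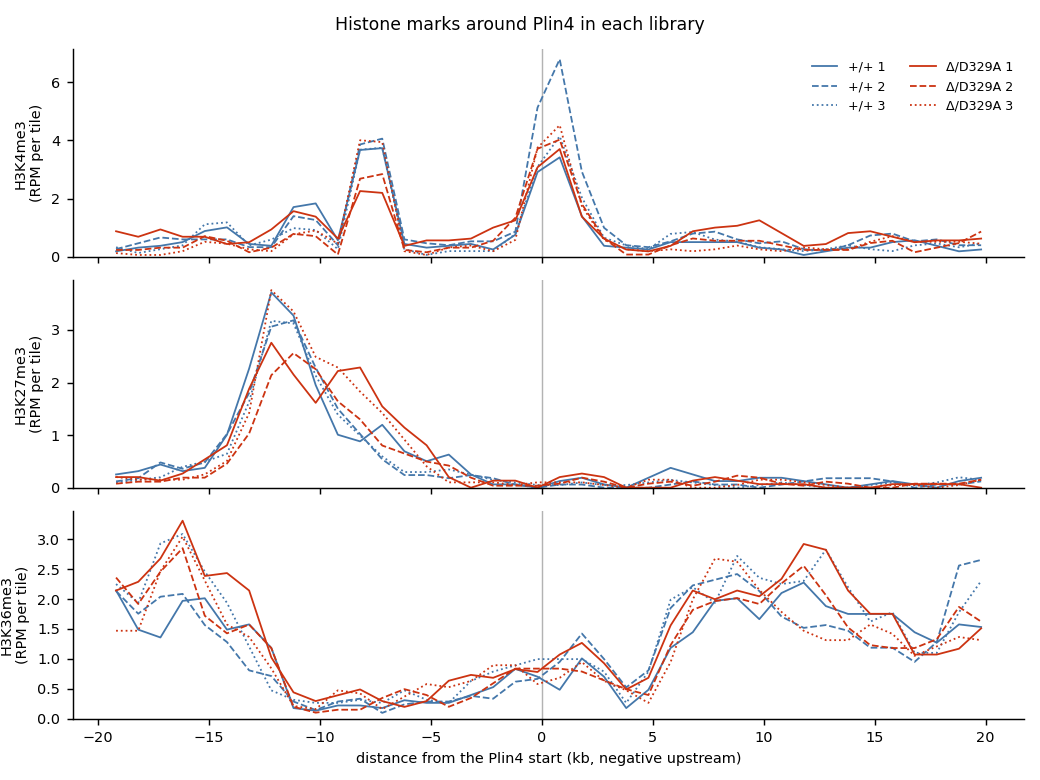
H3K4me3, H3K27me3 and H3K36me3 in RPM per tile (y axes) against the distance from the Plin4 start in kb (x axis, negative upstream), 1 line per library, +/+ in blue and Δ/D329A in red. H3K27me3 is near 0 at the start and, on the mean of the 6 libraries, highest 12198 bp upstream.

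Pdk4 had the largest H3K27me3 difference of the 10 promoters. It stood at 1.26, 1.26 and 1.96 RPM in +/+ and at 3.26, 3.36 and 3.63 in Δ/D329A, higher without overlap, as were 6.3% of all promoters. The log2 difference was 1.17 ± 0.18, with a 95% interval from 0.73 to 1.61. Limma called 0 of the 10 promoters and 0 of 25952 (0%), with 2 of the 10 and 8.9% of all at an unadjusted p under 0.05. For Pdk4 the unadjusted p was 0.000646 and the limma adjusted p 0.300. Pdk4 was called under 4 of the 16 alternatives, with an adjusted p of 0.0236 after median centring, where 0.208% of promoters were called, and of 0.00211 by edgeR on the tile at the start, which called 1.74%. The adjusted p ranged from 0.000907 to 0.679 over all settings, and the difference from 0.99 to 1.37. Input at this promoter was 0.714 to 0.984 RPM in +/+ and 0.807 to 0.968 in Δ/D329A. The Pdk4 transcript, in the RNA-seq libraries, differed by 0.03.

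Mt2 was the other promoter under an unadjusted p of 0.05, at 1.04, 1.14 and 1.59 RPM in +/+ and 1.92, 1.47 and 2.26 in Δ/D329A (0.55 ± 0.21, limma adjusted p = 0.551). Tsc22d3 was lower without overlap, as were 7.31% of all promoters, at 0.975, 0.961 and 1.04 RPM in +/+ and 0.571, 0.879 and 0.863 in Δ/D329A (limma adjusted p = 0.629). At the start of Cdkn1a with most H3K4me3, H3K27me3 was 0.441, 0.330 and 0.545 RPM in +/+ and 1.21, 0.535 and 1.22 in Δ/D329A, with overlap (0.96 ± 0.35, limma adjusted p = 0.517).

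Mt1 set 3 animals apart from the other 3 without regard to genotype. Its promoter H3K27me3 was 13.6, 13.2 and 0.595 RPM in +/+ and 20.4, 1.68 and 3.25 in Δ/D329A. The input of the same animals, in the tile centred 912 bp after the start, was 8.23, 9.18 and 0.544 RPM in +/+ and 13.9, 0.969 and 0.737 in Δ/D329A, so that +/+ replicates 1 and 2 and Δ/D329A replicate 1 were high in libraries made without an antibody. Where in the genome these reads arose was not tested, so the Mt1 values of these 3 animals may not come from the Mt1 promoter alone. Input at the promoters of the other 9 genes, Mt2 included, was 0.369 to 1.33 RPM. The H3K36me3 of Mt1 followed the same animals, at 2.45, 3.13 and 0.785 RPM in +/+ and 8.72, 1.03 and 0.787 in Δ/D329A. With the animal's input subtracted on the log2 scale, the H3K4me3 difference of Mt1 went from -0.43 to -0.02. H3K4me3 in that tile was 38.0, 33.5 and 36.3 RPM in +/+ and 28.0, 34.6 and 25.8 in Δ/D329A and did not separate the same animals. In the 3 animals with low input, H3K27me3 was 0.595 RPM in the +/+ animal and 1.68 and 3.25 in the Δ/D329A animals, which allows no test.

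**Figure D5:**
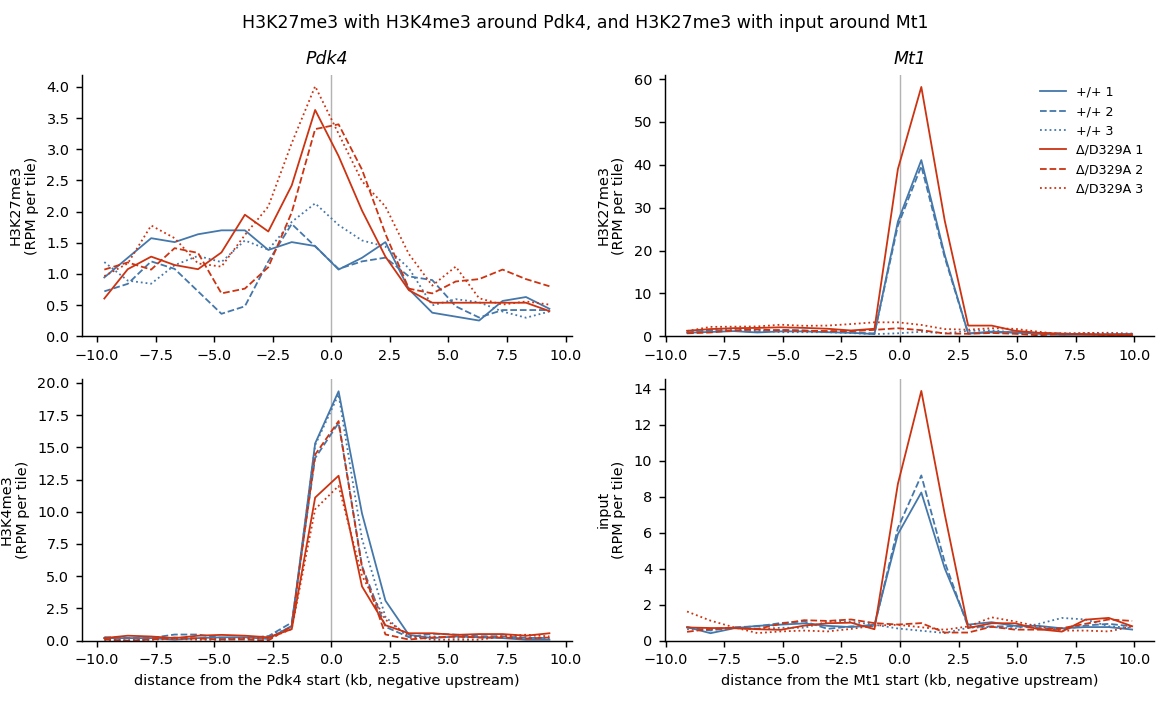
H3K27me3 and H3K4me3 around Pdk4 (left) and H3K27me3 and input around Mt1 (right) in RPM per tile (y axes) against the distance from the start in kb (x axes), 1 line per library, +/+ in blue and Δ/D329A in red. H3K27me3 at the Pdk4 start is higher in all 3 Δ/D329A libraries, while input at Mt1 is high in +/+ 1, +/+ 2 and Δ/D329A 1.

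H3K36me3, which marks transcribed gene bodies, was 1.05, 1.50 and 1.41 RPM over Plin4 in +/+ and 1.36, 1.13 and 1.25 in Δ/D329A, a difference of -0.06 ± 0.14 (limma adjusted p = 0.877). Limma called 0 of the 10 gene bodies and 1 of 25952 (0.00385%), with 1 of the 10, Pdk4, and 15.1% of all at an unadjusted p under 0.05. Sgk1 and Cdkn1a were lower without overlap, as were 13.8% of all gene bodies. Sgk1 had 1.07, 1.10 and 1.10 RPM in +/+ and 0.990, 1.06 and 0.996 in Δ/D329A (limma adjusted p = 0.395). Cdkn1a had 0.423, 0.490 and 0.483 RPM in +/+ and 0.395, 0.382 and 0.362 in Δ/D329A (limma adjusted p = 0.332).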

How the data were processed

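RNA-seq values are log2 RPKM that the authors made in SeqMonk from reads merged over exons and mapped to GRCm38 with HISAT2, and a gene without a read was deposited at a floor of 0.9 reads. ChIP-seq signal was deposited by the authors as reads per tile of 2000 bp every 1000 bp, corrected for the total of uniquely mapped reads (RPM), without input subtracted. The submitters' processing notes name Trim Galore 0.4.3, HISAT2 2.0.5, Bowtie2 2.3.2 and Bismark 0.19.0. The authors excluded 1 more mutant RNA-seq library. Bisulfite libraries were not analysed here.

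Of the genes, 17839 reached 0.1 RPKM in 4 or more libraries and entered a limma fit (version 3.58.1, R 4.3.3) with a variance trend, at a Benjamini-Hochberg adjusted p under 0.01, with mitochondrial genes left out. Marks were compared with limma on log2(RPM + 0.1) over 25952 promoters or gene bodies at an adjusted p under 0.05. All tests were two-sided. Whole reads were recovered for 25962 of 25965 genes within 0.02 reads and for 100% of the ChIP-seq values within 0.01 reads, and were used for edgeR 4.0.16 and, for RNA-seq, DESeq2 1.42.0. On these reads edgeR called 77 genes and DESeq2 251, and edgeR called 45 of 16143 tiles for H3K4me3 and 216 of 12400 for H3K27me3. Reads on genes ranged from 3874084 to 9976687 a library, and uniquely mapped ChIP-seq reads from 12676361 to 30207875. The fits were also run on simulated data, whose outcome is not given here. A list without a call does not show an absence of change.

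The 10 genes and all gene lists were chosen with earlier results of these data known. The result of 1 list is not reported here. Genes to be named were picked by rule: the 10 genes, from each list those called and the 2 with the smallest unadjusted p, Nr3c1, Nr3c2, Crh, Per1, Klf9, Dnmt3a, the genes within 50 kb of Plin4 and the 5 most like Plin4 or Fkbp5. Not all of the genes picked by this rule are named in the text. Plin5 and Lrg1 were named for H3K27me3 after their values were seen. Dnmt3a, whose deleted stretch the gene-level value does not resolve, differed by -0.28 ± 0.13 (limma adjusted p = 0.355). Same-numbered libraries did not deviate together, so that replicate numbers were not used as pairs.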

Additional observations from a re-analysis of the deposited data

Results flagged for a closer look

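In 164 groups of 4 or 5 RNA-seq libraries of the named genes, 10 had 1 library set apart from the others by Dixon's criterion, which chance gives in about 1 in 20 groups. Among the 10 genes it was Fkbp5, at -0.11 log2 RPKM in +/+ replicate 3 with the nearest other at 0.31. In +/+ replicate 3 Bmp4 (-2.57), Gm15445 (-3.01) and Pln (-2.25), which were named for their likeness to Fkbp5, were set apart as well. In +/+ replicate 1 it was Cideb (0.58) and Lum (-1.01), in +/+ replicate 4 Lcn2 (-3.16) and Ppard (-1.58), and in Δ/D329A replicate 1 Egr1 (2.86) and Sult2b1 (0.30).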

How the results depend on the processing

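The Plin4 expression difference stayed above 0 in all 31 fits and was 0.79 with a pseudocount of 1 RPKM and 1.65 to 1.83 with 1 library left out. Tsc22d3 lay above 0 in 28 and Pdk4 in 21 of the 31 fits, and the other 7 members in all. The 19 genes called by limma became 251 with DESeq2, 77 with edgeR, 34 with library weights, 34 with median centring, 32 with quantile normalization and 11 with a filter at 0.5 RPKM, 11 to 18 with 1 library left out and 15 to 30 with 1 library left out after median centring. The count of members called was 0 without +/+ replicates 4 and 5, a setting chosen after seeing the data, and 0 to 1 with 1 library left out. Of the other glucocorticoid-induced genes 1 was called without +/+ replicates 4 and 5, and 0 to 1 with 1 library left out, and the gene was Lcn2. The Plin4 promoter H3K4me3 difference was -0.0013 with edgeR on the tile, added after seeing the data, -0.11 with tiles within 1000 bp of the start, 0.25 with median centring, 0.24 with quantile normalization and -0.079 to 0.26 with 1 library left out. One member promoter, Pdk4, was called for H3K27me3 with a filter at 1 RPM, with edgeR on the tile, with median centring and with quantile normalization. The cause of these changes was not tested. Of 913 values under an alternative, 64 had the opposite sign to the value as reported.

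With the replicate block 0 members and 16 genes were called, and with the block and median centring 0 members and 11 genes. The Plin4 difference was 1.65 and 1.71. The labels give no shared animal or batch for a number, and deviations of same-numbered RNA-seq libraries correlated at -0.05 to 0.14.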
